A study of Mus musculus with 4 samples.

Results

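In all, 10 genes of the ETS family of transcription factors were followed in mouse primary myotubes with and without EDA-A2: Ets1, Ets2, Etv4, Etv5, Elk3, Elf1, Elf2, Elf4, Etv6 and Spib. They were taken by name from a list that had been drawn up with the comparison of these libraries already known, so their own values are given as a description. They are 10 of the 27 mouse ETS family genes, and all 27 were found among the 53647 genes of the count tables. Wild-type (WT) myoblasts came from the limbs of pups 2 to 3 days old and were grown in medium with bFGF, a fibroblast growth factor, at 2.5 ng/ml before they were switched to horse serum to form myotubes. The treated group, EDA-A2, received 250 ng/ml EDA-A2 for 24 h, the control group did not, and both were harvested 72 h after differentiation began. Each group had 2 libraries, the labels name no vehicle for the control, and nothing in the sources used here says whether the libraries came from separate cultures, so p-values measure only the spread between these libraries.

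ETS factors share a winged helix-turn-helix DNA-binding domain that reads a short GGAA core, and the subfamilies differ in the partner proteins that bind with them and in the signals that reach them. Several are substrates of ERK, the kinase at the end of the growth factor cascade, whereas the Spi subfamily, Spi1 and Spib, is known from blood and immune cells. Spib is needed in plasmacytoid dendritic cells and B cells, and in M cells of the gut epithelium it acts downstream of RANK, a receptor related to those of TNF that signals through NFκB. EDA-A2 is the ligand of EDA2R, another receptor of that kind, which signals to NFκB and is expressed in muscle.

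Counts on genes lay between 29444155 and 29746863 read pairs per library. Values called normalized counts were brought to a common library size with edgeR's TMM factors. The low-count filter kept 15173 genes, and all 10 members were among them, but Spib passed the filter only through its counts after EDA-A2. Genes with an adjusted p under 0.05 are called differentially expressed genes (DEGs). Of the members, 1 was called higher after EDA-A2 and 0 lower, where 2.45% of all genes tested were called higher and 2.13% lower. At an unadjusted p under 0.05 there were 3 members, where 15.6% of all genes tested were. The DESeq2 Wald test called 0 members and gave Spib no adjusted p. The 2 EDA-A2 libraries lay above both controls for 6 members and below both for 1, against 22.8% and 22.2% of all genes tested. The median log2 fold change (EDA-A2 over control) was 0.09 over the members and -0.00 over all genes tested. Because the members were picked with this contrast in view, nothing is read from these counts. Since the RNA is from whole cultures, fewer cells of a type and less RNA per cell cannot be told apart.

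Spib (ENSMUSG00000008193, minus strand of chromosome 7 from 44175417 to 44181495 of GRCm39) was the only member with no read pairs in the control. It had 0 and 0 counts in control replicates 1 and 2, and 19 and 26 counts in EDA-A2 replicates 1 and 2. The exact 95% Poisson intervals of the treated counts were 11.4 to 29.7 and 17.0 to 38.1, and a count of 0 allows up to 3.69. These intervals, which cover counting error only, did not meet. In normalized counts Spib went from 0 in both controls to 22.1 ± 4.90 (SD, n = 2) after EDA-A2. Set against a chosen floor of 3 counts per library, the treated mean of Spib was 7.22 times the floor, and the lower treated library 6.03 times. These ratios are not lower bounds, since a count of 0 allows up to 3.69 and the treated counts have intervals of their own. At 0.645 and 0.874 CPM (counts scaled to the library total) it was a rare transcript, where 3 counts make 0.101 to 0.102 CPM at this depth. Under the DESeq2 Wald test Spib was not called because it was given no adjusted p. Its log2 fold change there was 6.88 and its unadjusted p 2.66e-05. Spib also lost its call with no filter on low counts. It was likewise not called without control replicate 1 or without control replicate 2, where edgeR called 0 genes of any kind and 2179 and 2448 had an unadjusted p under 0.05, and it was not tested where 10 counts were required in every library.

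The promoter of Spib is shown because Spib is the member that was counted in the treated libraries alone, and because EDA2R signals to NFκB, whose dimers bind the κB consensus, a motif of 10 bases. The sequence below is the 300 bases before the annotated start, 5′ to 3′ on the minus strand at chr7:44181496-44181795 of GRCm39, and the capitals mark 2 matches to the κB consensus, at 180 to 171 and 84 to 75 bases before the start.
Spib: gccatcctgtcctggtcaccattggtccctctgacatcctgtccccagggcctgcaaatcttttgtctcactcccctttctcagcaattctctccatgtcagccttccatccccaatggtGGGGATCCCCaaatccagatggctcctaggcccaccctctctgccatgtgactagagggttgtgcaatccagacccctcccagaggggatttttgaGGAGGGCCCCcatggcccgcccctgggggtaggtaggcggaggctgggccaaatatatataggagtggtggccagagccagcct
Of the 10 members, Etv4 and Elk3 were the others with a match. Their matches are printed in capitals with 20 bases on each side, at chr11:101676238-101676287 and chr10:93147175-93147224, both on the minus strand, to set them beside that of Spib.
Etv4: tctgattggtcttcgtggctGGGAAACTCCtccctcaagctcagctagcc
Elk3: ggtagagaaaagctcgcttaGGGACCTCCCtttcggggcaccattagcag
The match in Etv4 lay 70 to 61 bases before its start and that in Elk3 148 to 139. Over 13065 promoters of the same length, read on both strands, 1278 (9.78%) held a κB match, so the motif is common. The ETS motif CCGGAAGT and the Spi motif GAGGAAGT, which share their last 6 letters, were found in 0 of the 10 members and in 3.97% and 2.31% of all promoters. Among the other ETS family genes, Gabpa and Elk4 each held both. A match is a description of letters, not of a bound site.

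Spib stood first by its treated counts among the genes that were silent in the control. Of 30272 genes with 0 counts in both control libraries, 371 had at least 1 count in both EDA-A2 libraries, and Spib had the highest mean count of them all, 22.5. Next came Adtrp, a hydrolase of fatty acid esters, with 12 and 21 counts. The highest mean control count among the 30077 genes at 0 in both treated libraries was 6.5. These figures were read from the same contrast that put Spib on the list and carry no test.

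**Figure D1:**
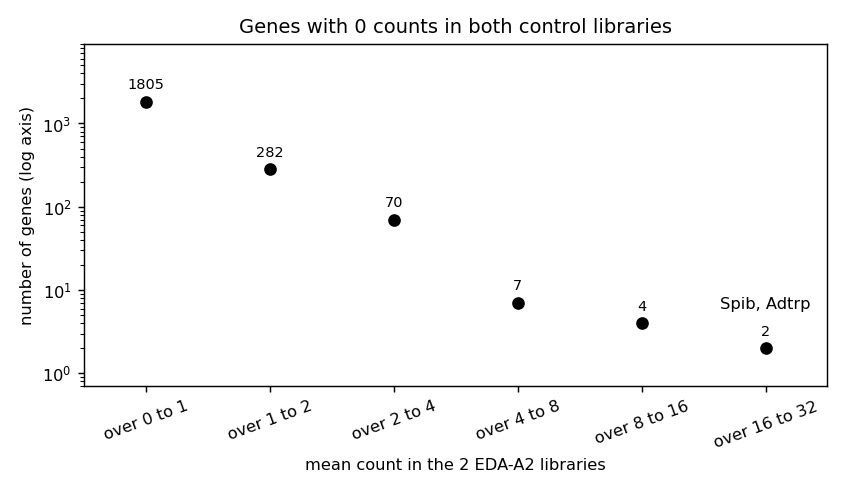
Number of genes (log axis) with 0 counts in both control libraries, by their mean count in the 2 EDA-A2 libraries, with genes at 0 in all 4 libraries left out. Of these genes, 1805 had a mean of at most 1, and 2 had a mean over 16, Spib and Adtrp.

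Genes with a pattern like that of Spib were those with at most 3 counts in each control library and at least 10 in both EDA-A2 libraries. There were 12 of 53647, 9 of them protein coding, and 1 gene, Prph, had the mirror pattern. With a minimum of 20 counts there were none, Spib included. Beside Spib and Adtrp (0, 0, 12 and 21 counts in control replicates 1 and 2 and EDA-A2 replicates 1 and 2), the protein-coding genes were Astn1 (3, 2, 16 and 16), Stap2 (1, 2, 15 and 17), Clca4a (3, 2, 16 and 12), Slc26a9 (2, 1, 10 and 14), Tafa1 (3, 2, 11 and 13), Flt4 (2, 1, 10 and 12) and Duox1 (1, 3, 10 and 11). All lay near the floor, and none had as many treated counts as Spib. Flt4 encodes the receptor of the lymphatic growth factors, Slc26a9 a chloride channel and Duox1 an oxidase that makes hydrogen peroxide.

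The nearest genes to Spib were examined for reads that could belong to a neighbour. No annotated gene overlapped Spib. Pold1, the catalytic subunit of DNA polymerase delta, ends 672 bases away on the same strand, and had 893 and 903 normalized counts in control and 848 and 880 after EDA-A2. Mybpc2, the fast myosin-binding protein C, lies 1263 bases away on the other side, also on the same strand, with 327 and 302 in control and 318 and 368 after EDA-A2. The log2 fold changes were -0.06 (standard error 0.08, adjusted p = 0.839 in edgeR) for Pold1 and 0.13 (0.12, adjusted p = 0.718) for Mybpc2. Both neighbours were present in the control libraries, in which Spib had no counts.

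The other 9 members were present in all 4 libraries and none was a DEG. Their log2 fold changes lay between -0.22 and 0.17, with standard errors from 0.07 to 0.11. The smallest change called among all genes was 0.24 on the log2 scale, which is larger than any of the 9 changes.

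**Figure D2:**
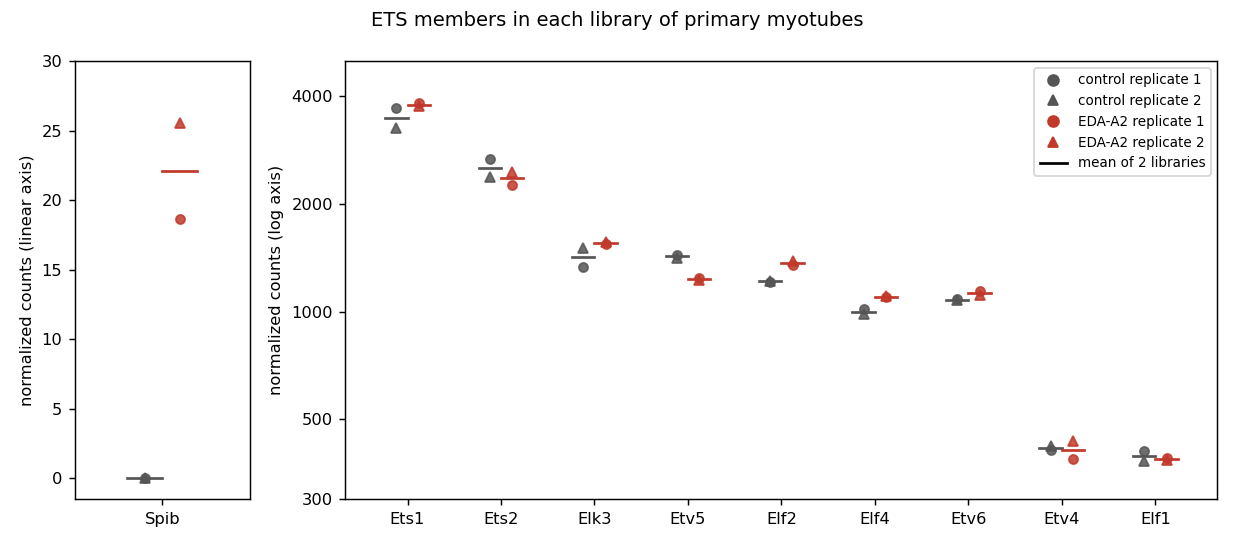
Normalized counts of the 10 members in each library, with Spib on a linear axis on the left and the other 9 on a log axis on the right. Circles are replicate 1, triangles replicate 2, grey control, red EDA-A2 and bars the mean of 2 libraries. Spib lies at 0 in both controls, and among the others the groups stand furthest apart, relative to their spread, for Etv5 and Elf2.

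Ets1 and Ets2 give the family its name and are activators phosphorylated by ERK. Ets1 (chromosome 9 from 32547517 to 32669116, plus strand) had 3701 and 3250 normalized counts in control replicates 1 and 2, and 3812 and 3753 in EDA-A2 replicates 1 and 2. The treated libraries lay above both controls, but the control libraries differed more from each other than EDA-A2 replicate 2 did from control replicate 1. The log2 fold change was 0.12 (standard error 0.07, 95% interval -0.04 to 0.28). Leaving out control replicate 1 gave 0.22 and leaving out control replicate 2 gave 0.03. Ets2 (chromosome 16 from 95502847 to 95522095, plus strand) had 2664 and 2372 in control and 2251 and 2452 after EDA-A2. Its groups overlapped, and the log2 fold change was -0.10 (standard error 0.08, interval -0.27 to 0.07). Leaving out control replicate 1 gave -0.01 and leaving out control replicate 2 gave -0.18, and the value was -0.04 without EDA-A2 replicate 1 and -0.16 without EDA-A2 replicate 2.

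Etv4 and Etv5 belong to the Pea3 subfamily, whose transcription follows fibroblast growth factor and ERK signals in many tissues. Etv5 (chromosome 16 from 22200052 to 22259662, minus strand) had 1442 and 1414 normalized counts in control and 1237 and 1224 after EDA-A2. It was the member whose treated libraries both lay below the controls, with means of 1428 ± 20.3 and 1230 ± 9.51 (SD, n = 2). The log2 fold change of Etv5 was -0.22 (standard error 0.08, interval -0.38 to -0.05), a difference in level of -13.9%, and it was not a DEG. Etv4 (chromosome 11 from 101660568 to 101676197, minus strand) had 410 and 423 in control and 388 and 435 after EDA-A2. Its treated libraries straddled the controls, and the log2 fold change was -0.02 (standard error 0.11, interval -0.25 to 0.22). Etv1, the last of the subfamily, had 1125 and 1296 in control and 1182 and 1263 after EDA-A2, so Etv5 alone of the 3 had groups that did not overlap. A test of the difference between Etv5 and the others was not made.

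Elk3, also known as Net, is a ternary complex factor, one of the ETS proteins that bind serum response elements together with serum response factor. Elk3 (chromosome 10 from 93083276 to 93147056, minus strand) had 1332 and 1506 normalized counts in control and 1543 and 1568 after EDA-A2, and the log2 fold change was 0.13 (standard error 0.08, interval -0.04 to 0.30). Here the treated libraries were close together and lay just above control replicate 2. The change of Elk3 was 0.05 without control replicate 1 and 0.22 without control replicate 2. Elk1, the best studied of the 3 ternary complex factors, had 906 and 1073 in control and 955 and 1058 after EDA-A2. Elk4 had 1283 and 1326 in control and 1398 and 1371 after EDA-A2.

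Elf1, Elf2 and Elf4 are one subfamily, known mostly from lymphoid and endothelial cells and broadly expressed. Elf2 (chromosome 3 from 51160141 to 51248242, minus strand) had 1210 and 1217 normalized counts in control and 1351 and 1382 after EDA-A2, that is 1213 ± 5.34 and 1366 ± 22 (SD, n = 2). The groups were far apart for their spread, and the log2 fold change was 0.17 (standard error 0.08, interval 0.01 to 0.33) and a difference in level of 12.6%. Elf4 (chromosome X from 47499816 to 47552035, minus strand) had 1015 and 983 in control and 1097 and 1102 after EDA-A2, and its log2 fold change was 0.14 (standard error 0.08, interval -0.03 to 0.31). Elf1 (chromosome 14 from 79718605 to 79820044, plus strand), with 409 and 382 in control and 391 and 385 after EDA-A2, had a fitted change of -0.03 (standard error 0.11, interval -0.26 to 0.20). Elf2 and Elf4 thus had treated libraries above both controls, and the treated values of Elf1 lay between its control values.

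Etv6, also called Tel, is a repressor that polymerizes through its pointed domain. Etv6 (chromosome 6 from 134011980 to 134247121, plus strand) had 1083 and 1074 normalized counts in control and 1145 and 1114 after EDA-A2. Both treated libraries lay above the controls, and the log2 fold change was 0.07 (standard error 0.08, interval -0.10 to 0.23). Bcl2l14, a gene of the Bcl2 family 126159 bases from Etv6, had 0 and 0 counts in control and 15 and 7 after EDA-A2. It was singled out after its values were seen.

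**Figure D3:**
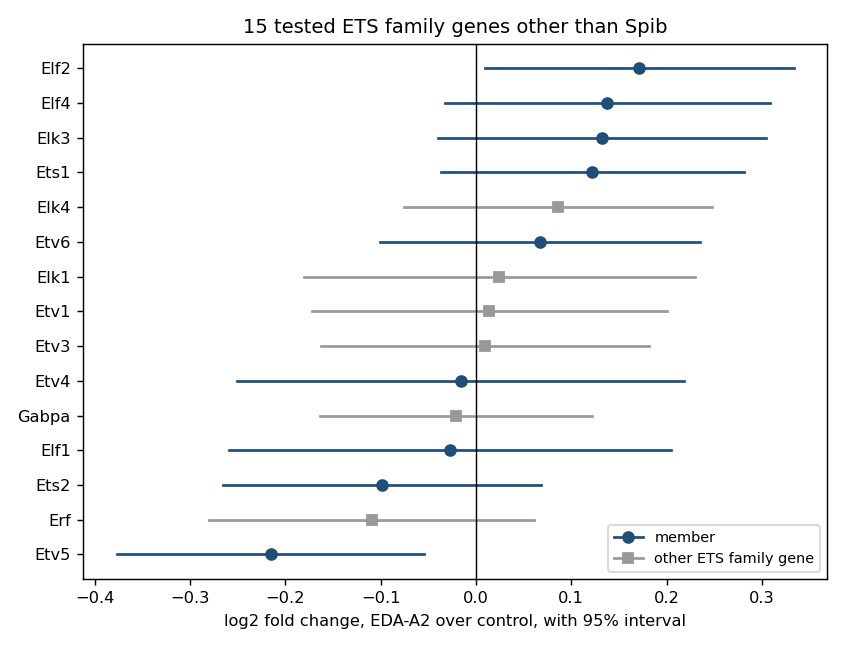
Log2 fold changes (EDA-A2 over control) of the 15 tested ETS family genes other than Spib, with 95% intervals from the edgeR fit. The intervals of Etv5 and Elf2 leave out 0, and all 15 changes lie between -0.22 and 0.17.

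Some members share exons with a gene on the opposite strand, and the strand option of the counting is not given in the sources used here. Elk3 shares 1126 bases of exon with Cdk17 and Elf1 shares 404 with Wbp4. Cdk17 had 1924 and 1925 normalized counts in control and 2030 and 2095 after EDA-A2, and Wbp4 had 1519 and 1458 in control and 1687 and 1646 after EDA-A2. Neither was a DEG, but both had treated libraries above the controls, and their part in the values of Elk3 and Elf1 was not tested. Elf2 shares 371 bases with 4930577N17Rik, which had at most 20 counts in a library, and Etv6 shares 202 with Gm17089, which had 0 in all 4. The other overlapping genes in the tables share no exon bases with the member. Gm27240, within Ets1, had 93.8 and 64.5 normalized counts in control and 49.0 and 70.8 after EDA-A2, and Gm37399 in Elf2 and Gm17088, Gm43982, Gm43984 and 1700051K13Rik in Etv6 had at most 3 counts.

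Of the 18 nearest expressed genes of the members other than Spib, 2 were DEGs. Over all genes tested, 2.45% were called higher and 2.13% lower. Noct, the circadian gene nocturnin, 1075 bases from Elf2 on the opposite strand, rose from 1136 and 1033 to 1577 and 1470 (log2 fold change 0.49, standard error 0.08, adjusted p = 0.0023 from the edgeR fit). Arhgap32, 367774 bases from Ets1, fell from 1398 and 1576 to 1147 and 1110 (log2 fold change -0.40, standard error 0.08, adjusted p = 0.0105 from the edgeR fit). The other 16 were Tmed2b for Ets1, Gm41505 and Psmg1 for Ets2, Dhx8 and Meox1 for Etv4, Tra2b and Dgkg for Etv5, Gm49783 and Lta4h for Elk3, Kbtbd6 and Sugt1 for Elf1, Mgarp for Elf2, Bcorl1 and Aifm1 for Elf4, and Gm5886 and Lrp6 for Etv6. Their log2 fold changes lay between -0.51 and 0.25.

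Of the 17 ETS family genes outside the list, 6 passed the filter and 0 were DEGs by edgeR or DESeq2, with 0 at an unadjusted p under 0.05. Over all genes tested, 15.6% passed that level. The median log2 fold change of the 6 was 0.01. Gabpa, the ETS subunit of the GABP complex that activates genes of mitochondrial respiration and of the neuromuscular synapse, had 3391 and 3445 normalized counts in control and 3435 and 3304 after EDA-A2 (log2 fold change -0.02, standard error 0.07, adjusted p = 0.934 from edgeR). Erf, a repressor that ERK expels from the nucleus, had 1063 and 1070 in control and 1002 and 976 after EDA-A2 (-0.11, standard error 0.08, adjusted p = 0.594 from edgeR). Its treated libraries lay below both controls, whereas those of Elk4 lay above. Etv3, a repressor of the same subfamily as Erf, had 978 and 977 in control and 993 and 975 after EDA-A2. The fitted changes of Etv1, Etv3, Elk1 and Elk4 were 0.01, 0.01, 0.02 and 0.09, with adjusted p-values from edgeR of 0.969, 0.976, 0.950 and 0.683.

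The remaining 11 ETS family genes were too low to test. Spi1, also called PU.1, the nearest relative of Spib and a master regulator of myeloid cells, had 1 and 0 counts in control and 0 and 1 after EDA-A2. Spic, the third of the subfamily, had 0, 0, 1 and 0 in the same order. Spib was therefore the one gene of its subfamily with more than 1 count in any library. The endothelial and blood factors Erg and Fli1 had 1 count each in control replicate 1 and 0 elsewhere. The epithelial factors Elf5 and Ehf were at 0 in all libraries and Elf3 had 2 or 3 counts. Spdef, another epithelial factor, had 5 and 3 in control and 7 and 3 after EDA-A2. Etv2, Etv3l and Fev were at 0 throughout.

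To compare levels between genes, normalized counts were divided by the summed exon length in kilobases (kb). On this scale Ets1, Gabpa and Ets2 led, in this order, and together made 40.8% to 43.6% of the family's summed level in a library. Their ranges over the 4 libraries overlapped, 383 to 449 per kb for Ets1, 393 to 410 for Gabpa and 363 to 429 for Ets2. Then came Elk3, Erf, Etv5, Elf4, Etv6, Elk1, Elf2, Etv4, Elk4, Etv3, Etv1, Elf1 and Spib. Of these later neighbours the ranges overlapped between Etv5 and Elf4, Etv6 and Elk1, Elk1 and Elf2, Elf2 and Etv4, and Etv3 and Etv1, and the other neighbours lay apart. Elf1, the lowest of the tested genes other than Spib, spanned 49.0 to 52.4 per kb. Spib reached 6.49 and 8.91 per kb after EDA-A2, which was 0.223% and 0.302% of the family's summed level.

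**Figure D4:**
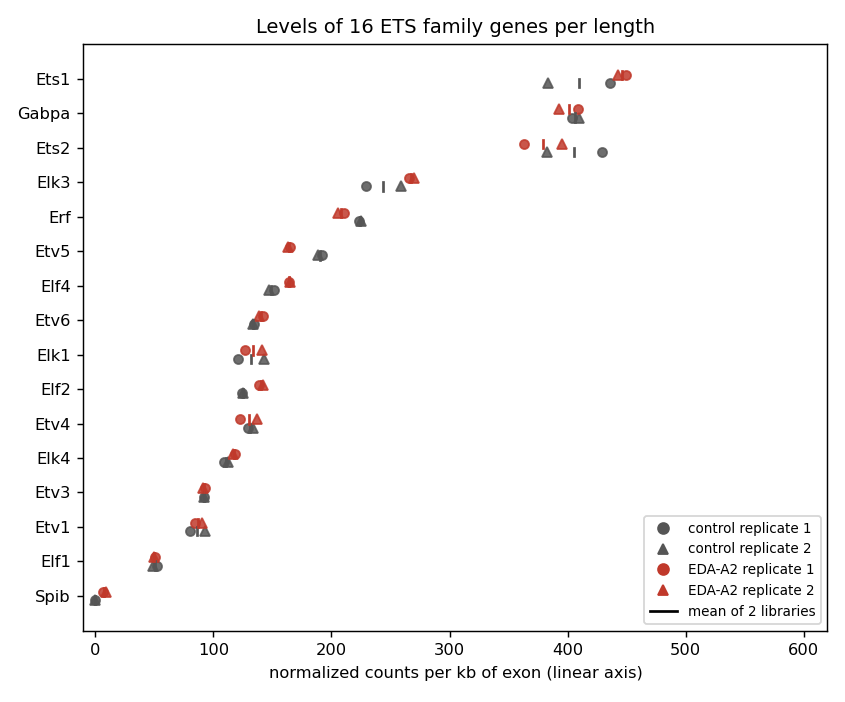
Normalized counts per kb of exon of the 16 tested ETS family genes in each library (linear axis), with symbols as in the plot of the members by library. Ets1, Gabpa and Ets2 lie between 363 and 449 per kb, and Spib stays under 9 per kb after EDA-A2.

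The summed level of the family was 2893 ± 24.6 per kb in control and 2931 ± 26.3 after EDA-A2 (SD, n = 2), and over the 10 members it was 1839 ± 55.8 and 1888 ± 31.5. By subfamily, Ets1 and Ets2 summed to 865 and 765 per kb in control and 812 and 837 after EDA-A2. The Pea3 genes summed to 402 and 414 in control and 372 and 391 after EDA-A2. The Elf genes summed to 328 and 321 in control and 353 and 356 after EDA-A2. The Erf genes summed to 315 and 317 in control and 304 and 297 after EDA-A2, and Etv6 alone had 134 and 133 in control and 142 and 138 after EDA-A2. The ternary complex factors summed to 458 and 514 in control and 511 and 527 after EDA-A2. Gabpa alone had 403 and 410 in control and 408 and 393 after EDA-A2. In both treated libraries the Pea3 and Erf sums lay below the controls, and the Elf sum and Etv6 above. Among all single genes tested, 22.2% lay below in this way and 22.8% above, and the sums were not tested. The Spi sum went from 0.341 and 0 to 6.73 and 9.23.

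Genes that work with ETS factors were followed in lists chosen by function. Of 16 partner genes 13 were tested and 0 were DEGs in edgeR or DESeq2. An unadjusted p under 0.05 was reached by 1 of the 13, where 15.6% of all genes tested reached it. The median change was -0.01 on the log2 scale beside -0.00 over all genes. The partner with the smallest p-value was Gabpb1, the beta subunit that Gabpa needs to activate, with 624 and 668 normalized counts in control and 775 and 815 after EDA-A2 (log2 fold change 0.30, standard error 0.09, adjusted p = 0.0816 from edgeR). Cbfb, which pairs with Runx factors, had 4053 and 3823 in control and 4347 and 4349 after EDA-A2. Runx2, a Runx factor of bone, had 615 and 615 in control and 568 and 533 after EDA-A2. The other 3 partners were too low to test. Irf4 and Irf8, with which Spib binds in lymphoid cells, had at most 1 count in a library. Pou2f2, the lymphoid octamer factor, had 9 and 6 counts in control and 6 and 5 after EDA-A2.

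Among 8 genes of the ligase machinery that degrades ETS proteins, 0 were DEGs in edgeR or DESeq2 and 2 had an unadjusted p under 0.05, the level that 15.6% of all genes tested passed. Positive changes were seen for 2 of the 8, and the median was -0.07 on the log2 scale. Trib1, a scaffold of the Cop1 ligase, had 490 and 619 normalized counts in control and 434 and 447 after EDA-A2, and Fbxw7 had 1132 and 1137 in control and 965 and 1004 after EDA-A2. Their log2 fold changes were -0.33 (standard error 0.12, adjusted p = 0.148 from edgeR) and -0.20 (0.08, adjusted p = 0.204). Cul4a, a ligase scaffold, had 7837 and 7132 in control and 6818 and 6708 after EDA-A2. For all 3, the treated libraries lay below the controls without passing the test.

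Of 13 genes that respond to ERK or feed back on it, 1 was higher and 1 lower, where 2.45% and 2.13% of all genes tested were. An unadjusted p under 0.05 was found for 3 of the 13, against 15.6% of all genes tested. The median change of the 13 was 0.06 on the log2 scale. Egr1, an immediate early zinc finger factor, rose from 712 and 742 normalized counts to 907 and 912 (log2 fold change 0.32, standard error 0.09, adjusted p = 0.0441 from edgeR). Spry1, a Sprouty inhibitor of receptor tyrosine kinase signalling, fell from 855 and 744 to 580 and 635 (-0.40, standard error 0.10, adjusted p = 0.0325 from edgeR). Spry2 had 800 and 789 in control and 677 and 655 after EDA-A2 (-0.25, standard error 0.09, adjusted p = 0.138 from edgeR). The calls of Egr1 and Spry1 were both lost with no filter, under the DESeq2 Wald test and without each library in turn.

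Of 12 genes of M cells, the gut cells in which Spib acts, 5 were tested and 0 were DEGs in edgeR or DESeq2. Of the 5, 1 had an unadjusted p under 0.05, the level that 15.6% of all genes tested passed. The median change was 0.11 on the log2 scale, and 4 were positive. Cxcl16, which is among these, passed the filter only through its counts after EDA-A2. Cxcl16, a chemokine that is anchored in the membrane, had 9.27 and 10.1 normalized counts in control and 25.5 and 20.6 after EDA-A2 (log2 fold change 1.24, standard error 0.42, adjusted p = 0.125 from edgeR). Marcksl1 had 892 and 842 in control and 1035 and 922 after EDA-A2, and Anxa5 had a change of 0.11. The other tested genes, Tnfaip2 and Sox8, had changes of 0.03 and -0.14. Ccl9, a chemokine that was too low to test, had 0 and 4 counts in control and 11 and 10 after EDA-A2. Ccl20 and Ccl6, also chemokines too low to test, had 2 and 2, and 1 and 0, in control. After EDA-A2 they had 1 and 1, and 0 and 0. Gp2, a receptor of mature M cells, was at 0 in all 4 libraries, and Tnfrsf11a, which encodes RANK itself, had 4 and 17 counts in control and 9 and 3 after EDA-A2.

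Markers of the labelled cell type were abundant, and those of B cells were near absent. The summed level of 8 myotube markers was 130246 to 139436 per kb in control and 102109 to 105049 after EDA-A2. Of these markers 3, Acta1, Myh3 and Actn2, were lower DEGs, where 2.13% of all genes tested were. Of 8 B cell markers 7 had at most 3 counts in any library, and Ms4a1 and Cd22 were at 0 in all 4. Their summed level was 2.57 to 3.82 per kb in control and 2.88 to 3.22 after EDA-A2. Of 8 markers of plasmacytoid dendritic cells 7 had at most 3 counts, and Siglech, Ccr9 and Irf8 were at 0 in all 4. Their sum was 448 to 649 per kb in control and 544 to 593 after EDA-A2, and Bst2, which many cells express, was the one marker above the floor. Of 8 macrophage markers 4 had at most 3 counts, with Fcgr1 at 0 and Adgre1 at 1 count in 1 library, and their sum went from 52.2 and 61.0 per kb in control to 83.9 and 71.5 after EDA-A2. Itgam had 18.6 and 18.2 normalized counts in control and 38.2 and 31.5 after EDA-A2 (log2 fold change 0.92, adjusted p = 0.168 from edgeR). The 8 endothelial markers summed to 17.4 and 17.7 per kb in control and 24.4 and 24.2 after EDA-A2, with Emcn at 0. The 6 epithelial markers summed to 463 to 552 per kb in control and 367 to 408 after EDA-A2. The 2 that were tested, Cdh1 and Krt19, had treated libraries below both controls, where 22.2% of all genes tested lay below. Their log2 fold changes were -0.94 (adjusted p = 0.0657 from edgeR) and -0.38 (adjusted p = 0.0525), and neither was a DEG. The 6 fibroblast markers summed to 5288 to 5330 per kb in control and 4853 to 4982 after EDA-A2. Of the 4 that were tested 2 had positive changes, Dcn (0.48) and Pdgfra (0.16), both with treated libraries above the controls. Col1a1 (9277 and 5088 normalized counts in control, 4675 and 5802 after EDA-A2) and Col3a1 had groups that overlapped. Of the 5 myoblast markers Vcam1 was higher and Cdh15 lower, where 2.45% and 2.13% of all genes tested were. Their log2 fold changes were 0.53 (adjusted p = 0.0025 from edgeR) and -0.47 (adjusted p = 0.0032). Only 1 of the 5 changes was positive, and 3 had an unadjusted p under 0.05 in edgeR. No macrophage or endothelial marker was a DEG. Treated libraries lay above both controls for the 3 tested macrophage markers, Itgam, Cd14 and Cd68, where 22.8% of all genes tested lay above. Their median log2 fold change was 0.92. An unadjusted p under 0.05 in edgeR was reached by 2 of the 3, a level that 15.6% of all genes tested passed. Cd14 had 11.3 and 17.1 normalized counts in control and 29.4 and 25.6 after EDA-A2. The 3 tested endothelial markers, Cdh5, Vwf and Cldn5, also lay above the controls (median 0.37). Of these, Cldn5 (7 and 5 counts in control, 13 and 14 after EDA-A2) passed the filter only through its treated counts. Some genes too low to test lay below the controls in normalized counts, such as Lyz2 (3 and 2 counts to 1 and 2) and Kdr (4 and 2 to 1 and 0). The part of the macrophage and endothelial sums, which were higher in both treated libraries, was not tested.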

How the data were processed

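The authors sequenced messenger RNA of 4 libraries of primary myotubes, 2 control and 2 EDA-A2, as read pairs from a stranded kit. Per the labels and the study's methods, reads were checked with FastQC 0.11.9 and MultiQC 1.12, trimmed with Trim Galore 0.6.5, mapped to GRCm39 with STAR 2.7.3a and counted with HTSeq 0.11.1. For each library the authors deposited a table of raw counts of read pairs by Ensembl gene, not normalized. The annotation release and the strand option of the counting are not given in the sources used here. Summary lines of HTSeq, 12.2% to 13.0% of each library, were left out, and GENCODE vM39 matched 52610 of 53647 genes.

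Counts were fitted in R 4.3.3 with edgeR 4.0.16 (TMM, filterByExpr at min.count 10 and min.total.count 15, glmQLFit and glmQLFTest, with the treatment in the model and nothing else). Adjustment ran over 15173 genes by the Benjamini-Hochberg method, with 0.05 as the threshold. A standard error is the size of a log2 fold change over the root of its F statistic, and the floor was 3 counts per library. The steps were tested on simulated counts. Alternatives were other scalings and filters, DESeq2 1.42.0, a replicate block and leaving out each library.

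The members, the lists and the tests were chosen with earlier results of these data known. Named were all ETS family genes, overlapping and nearest expressed genes of the members, in each list the DEGs or, where few, up to 3 with the lowest p, and up to 10 protein-coding genes with a pattern like that of Spib. Untested list genes, single markers and the M cell genes Tnfaip2 and Sox8 were chosen after their values were seen. The GRCm39 sequences were read from the genome before the annotated canonical start. Protein sequences were not used here. The replicate numbers were not treated as pairs in the main fit. A fit with the replicate number as a block called more genes, 537 higher and 529 lower against 371 and 323. Whether the libraries were paired is not settled here.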

Additional observations from a re-analysis of the deposited data

How the results depend on the processing

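The number of members called higher, 1 (Spib), was 0 with no filter, with at least 10 counts in every library and under the DESeq2 Wald test, and 0 to 1 with each library left out, where a lone library is assumed to vary like the others. DESeq2 gave Spib no adjusted p, and its unadjusted p in the Wald test was 2.66e-05. The count of DEGs in the lists of partners, ligases, ERK genes and M cell genes, 2, was 0 with no filter, 0 under the DESeq2 Wald test and 0 to 0 with each library left out. With the replicate block it was 3, since Gabpb1 was called as well (log2 fold change 0.30). Genes with a pattern like that of Spib, 12, were 0 at a minimum of 20 counts and 22 to 41 with each library left out, a check added after the data were seen.

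Over all genes, 371 were higher and 323 lower. Scaling to total counts gave 485 and 194 and shifted the median by 0.05 on the log2 scale, and under it Etv4 was 0.0385, Gabpa 0.0344 and Elf1 0.028. The same scaling gave -0.04 for Ets2, -0.05 for Erf, 0.14 for Elk4 and 0.12 for Etv6, each a move of over 1.5 times. With no filter 64 were higher and 22 lower, and without control replicate 1 or without control replicate 2 there were 0. With a replicate block, 537 were higher and 529 lower, 1 member was called higher and the log2 fold change of Spib was 7.48, against 7.47 without the block. That fitted value depends on the prior count and is not a bound. With each library left out, log2 fold changes ran from -0.0823 to 0.121 for Etv1, -0.102 to 0.0654 for Etv4, -0.00294 to 0.0213 for Etv3, -0.0904 to 0.153 for Elk1, -0.048 to 0.00574 for Gabpa and -0.0746 to 0.0242 for Elf1. The direction of these 6 changes is thus not settled. The ranges were 0.03 to 0.22 for Ets1, -0.18 to -0.01 for Ets2 and 0.05 to 0.22 for Elk3, with no change of sign. Over the 16 tested ETS family genes, 159 values kept direction and call, 4, all of Spib, lost the call and 12 changed sign. With 2 libraries per group, changes under 0.24 on the log2 scale were not called.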
